A study of Mus musculus with 19 samples.

Results

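Of 19 Eμ-Myc mouse lymphomas, 8 were compared by their level of surrogate light chain RNA. The rule took 9 named early-onset tumours, scored each by the mean of log2(value + 1) of Igll1 and Vpreb1, and set the 4 highest against the 4 lowest; the tumour in between entered neither group. A value is the authors' normalised read count, a gene's reads divided by 1 factor per library. The groups were therefore chosen by measured RNA, not by a treatment, and Igll1, Vpreb1 and their near copy Vpreb2 are given below as a description with no test.

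The tumours of the high group held Igll1 and Vpreb1 at 20.2 or more, and 2 of them at over 300. Vpreb1 alone did not separate the groups, since a tumour of the low group held it at 24.5. Of 17028 other genes tested between the groups, only 2 passed limma with a Benjamini-Hochberg adjusted p under 0.05, and both are keratinocyte genes: Krt5, a basal keratin, and Col17a1, a hemidesmosome collagen. Both were higher in the high group, and no gene passed as lower. A gene was tested if it reached 1 in 4 or more of the 8 libraries. These 2 reached 1 only in the high group. Followed as a continuous score over all 9 tumours, 141 genes rose and 50 fell, among them Dntt, the polymerase that adds bases at V(D)J joints, which rose, and Brwd1, a chromatin reader of the late pre-B stage, which fell. These 191 genes were 1.12% of those tested, and without the tumour of the highest score only 2 genes passed.

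All mice carried the Eμ-Myc transgene, which places Myc under the enhancer of the immunoglobulin heavy chain locus and so drives it in B cells, so no group was free of it. Per the labels the tumours were Bptf+/+ (WT) or Bptf+/Δ (HET, with 1 deleted Bptf allele), and each library was 1 tumour, named here by genotype, onset class and number. The high group held WT_early_5, HET_early_1, HET_early_4 and WT_early_6, with onset at 13, 9, 12 and 10 weeks. The low group held HET_early_3, WT_early_3, WT_early_1 and WT_early_2, with onset at 8, 17, 9 and 17 weeks. WT_early_4, with onset at 13 weeks, was the tumour in between. Genotype was thus mixed, with 2 WT and 2 HET tumours in the high group and 3 WT and 1 HET in the low group, and the latest onset was 13 weeks in the high group and 17 weeks in the low group. The p-values below measure the association with 2 genes among these 8 tumours.

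In developing B cells the products of Igll1 (lambda 5) and Vpreb1 form the surrogate light chain, which pairs with a new immunoglobulin mu heavy chain, together with the signalling chains Cd79a and Cd79b, as the pre-B cell receptor. Signals from this receptor drive a burst of division and then end surrogate light chain transcription, after which the kappa and lambda light chain genes rearrange and the surface carries a complete receptor. Eμ-Myc lymphomas are known to arise from B cells at stages from pre-B to the immature and mature B cell.

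Igll1 and Vpreb1 lie close together on mouse chromosome 16 (GRCm38, GENCODE M21), Igll1 at 16860671 to 16863985 and Vpreb1 at 16868403 to 16870843, both on the minus strand. Their promoters and that of Dntt, on chromosome 19 at 41029275 to 41059525 on the plus strand, are shown because these 3 transcripts ran in almost the same order over the 9 tumours. Each line is the 150 bases before the start of transcription, from RefSeq (GRCm38.p6), 5′ to 3′ on the gene's own strand, with capitals on the E-box CANNTG, the motif bound by basic helix-loop-helix factors such as E2A and Myc.
Igll1, chr16:16863986-16864135, minus strand: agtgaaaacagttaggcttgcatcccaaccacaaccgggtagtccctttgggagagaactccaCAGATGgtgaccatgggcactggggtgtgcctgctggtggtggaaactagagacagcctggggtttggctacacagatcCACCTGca
Vpreb1, chr16:16869256-16869405, minus strand: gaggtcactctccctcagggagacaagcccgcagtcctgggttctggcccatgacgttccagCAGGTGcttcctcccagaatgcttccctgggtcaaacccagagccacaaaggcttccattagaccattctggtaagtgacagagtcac
Dntt, chr19:41029125-41029274, plus strand: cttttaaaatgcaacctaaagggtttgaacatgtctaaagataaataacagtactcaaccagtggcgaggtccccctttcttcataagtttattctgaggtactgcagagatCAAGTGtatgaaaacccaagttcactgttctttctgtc
The Igll1 window held 2 E-boxes, and the Vpreb1 and Dntt windows 1 each. The motif is common: 47.7% of 32851 windows of the same length held at least 1. The EBF1 core CCCNNGGG, on either strand, was in none of the 3 windows and in 7.72% of all windows, and the Ikaros core GGGAA, on either strand, was in the Vpreb1 window alone of the 3 and in 38.9% of all windows. The RefSeq start of Vpreb1 lies inside the longer GENCODE gene. A match is a description of these letters and not a measured binding site.

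Igll1 was at 3936, 1072, 34.5 and 33.1 in the high group (WT_early_5, HET_early_1, HET_early_4 and WT_early_6, the order kept for the high group throughout) and at 7.35, 16.7, 0.87 and 0 in the low group (HET_early_3, WT_early_3, WT_early_1 and WT_early_2, the order kept for the low group). Vpreb1 was at 2094, 386, 43.8 and 20.2 in the high group and at 24.5, 6.88, 0.87 and 0 in the low group. The split therefore cut a graded series: WT_early_5 and HET_early_1 stood far above all others, and Vpreb1 in HET_early_3, of the low group, exceeded Vpreb1 in WT_early_6, of the high group. Just inside the high group the score was 4.75 (WT_early_6), the tumour left out had 4.29 (WT_early_4), and just inside the low group it was 3.87 (HET_early_3). In reads, WT_early_6 held 36 of Igll1 and 22 of Vpreb1, and HET_early_3 held 9 and 30.

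**Figure D1:**
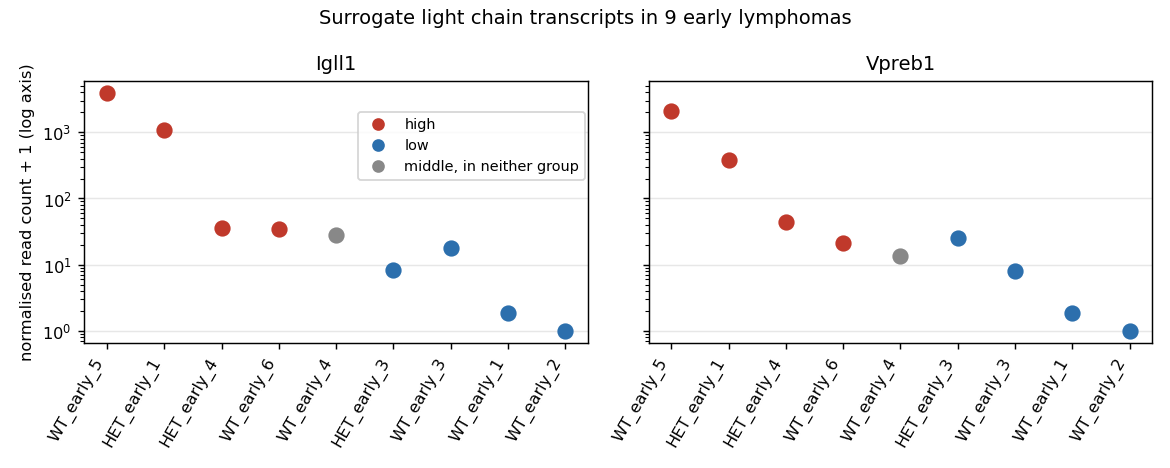
Normalised read count plus 1 (log axis) of Igll1 and Vpreb1, 1 point per tumour, in order of the score; red is high, blue low and grey the middle tumour. WT_early_5 and HET_early_1 lie above 300 for both genes, and the other 7 tumours at 43.8 or less.

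Vpreb2, the second copy of the Vpreb gene, on chromosome 16 at 17980428 to 17981273, was at 23.1, 23.3, 4.21 and 0 in the high group and at 0 in all 4 tumours of the low group. The longest annotated transcripts of Vpreb1 and Vpreb2 were identical at 97.4% of 759 aligned positions, so reads of one can be counted for the other. The tenth early tumour, HET_early_2, was not among the rule's columns and had no read of either rule gene. Its summed level of 14 pan-B genes was 1809, against 33572 to 56660 in the 9 ranked tumours, and 4.36% of its reads came from Col2a1, the main collagen of cartilage. Among the 9 late tumours the score reached 5.38 in WT_late_3 and 2.41 or less in the other 8.

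The libraries held 9753478 to 11819433 reads in the 8 tumours compared, with overlapping ranges in both groups. Bptf was at 1665 to 2480 in WT_early and 1277 to 1551 in HET_early tumours, so the labelled genotypes did not overlap, and its ranges in the high group (1521 to 2098) and the low group (1277 to 2480) did. WT_early_6 stood apart: Bpifa2, a salivary secretory protein, was its most abundant transcript with 5.07% of reads, at 499609, against 8.16 to 98.5 in the other 8 ranked tumours. Pax5, the transcription factor that fixes B lineage identity, was high in every ranked tumour, from 4232 to 6309 in the high group and from 2909 to 4400 in the low group.

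The genes called between the groups were epithelial. Krt5 (chromosome 15, 101707070 to 101712898) was at 35.6, 43.8, 15.2 and 32.1 in the high group and at 0, 0.98, 0 and 0 in the low group, so the groups did not overlap. It rose by 4.69 ± 0.47 (SE, n = 4 and 4) on the log2(value + 1) scale, with a limma adjusted p of 0.0186. Col17a1 (chromosome 19, 47646344 to 47692094) was at 26.7, 17.7, 11.8 and 19.3 in the high group and at 0 in all 4 low tumours. Its difference was 4.26 ± 0.39 (SE, n = 4 and 4; limma adjusted p = 0.0167), a size that depends on the added 1 because the low group was at 0; its mean in the high group of 18.9 was under the minimum of 20 set for naming genes, and it was singled out after its values were seen. The 2 calls were 0.0117% of the genes tested; at an unadjusted p under 0.05 limma had 1732 genes higher (10.2%) and 880 lower (5.17%). Both genes reached 1, the level of the filter, only in the high group, so they entered the test through that group alone. In WT_early_4, between the groups, Krt5 was at 0 and Col17a1 at 1.49.

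The count of calls varied with single tumours and settings. Leaving out 1 tumour at a time gave 0 calls in 7 of 8 cases and 60 without HET_early_3 (56 higher and 4 lower). In each fit without a high tumour, Krt5 and Col17a1 no longer reached 1 in 4 libraries and were not tested. Their loss there was fixed by the filter. Without WT_early_1, WT_early_2 or WT_early_3, where both genes were still tested, no gene passed. WT_early_6, the library with salivary RNA, is a high tumour, so the fit without it cannot tell whether it carried the 2 calls. Without the 2 tumours in which both rule genes exceeded 300, no gene passed either, with Krt5 at 4.29 and Col17a1 at 4.01 on the log2 scale.

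A list of 10 epithelial genes was then examined, chosen after the values were seen and so given with no test of its own. It held both called genes. Such a choice favours positive differences and separation, so the values below describe the list and are not a further result. All 10 had a positive difference, with a median of 4.09 against 0.02 over all genes tested, and 7 did not overlap between the groups, where 5.34% of all genes tested lay above in every high tumour. Their summed level ran from 173 to 1611 in the high group and from 11.3 to 106 in the low group. Cdh1, the epithelial cadherin, was at 99.7, 14.0, 27.8 and 150 in the high group and at 1.63, 1.97, 0 and 1.71 in the low group. Trp63, the transcription factor of basal epithelium, was at 19.6, 14.0, 13.5 and 16.5 against 5.71, 0, 0 and 0. Neither passed (limma adjusted p of 0.126 for Cdh1 and 0.158 for Trp63), though every high tumour exceeded every low one for both. The levels are low beside B cell genes such as Pax5, and in WT_early_4 the list summed to 44.8, within the range of the low group.

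**Figure D2:**
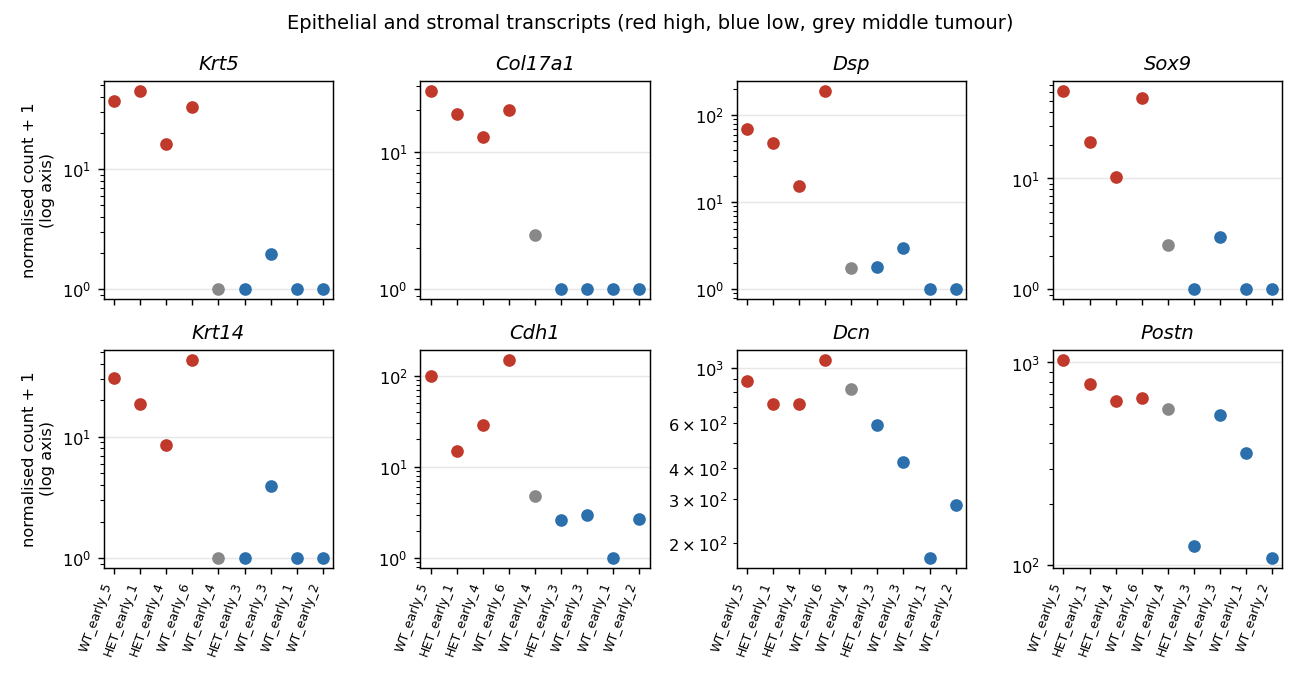
Normalised read count plus 1 (log axis) of 6 epithelial-associated genes and 2 stromal genes, 1 point per tumour in order of the score; red is high, blue low and grey the middle tumour. For all 8 genes every red point lies above every blue point, and for Krt5 the 4 red points lie between 15.2 and 43.8.

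Other genes with the smallest p-values were on the same side without passing. Dsp, a desmosome protein, was at 68.5, 46.6, 14.3 and 189 in the high group and at 0.82, 1.97, 0 and 0 in the low group. Sox9, a transcription factor of cartilage and epithelial progenitors, was at 60.5, 20.5, 9.26 and 52.4 against 0, 1.97, 0 and 0. Sntb1, a syntrophin of the dystrophin complex, ran from 49.7 to 107 against 3.41 to 15.5, and Tanc1, a scaffold protein, from 232 to 455 against 53.1 to 113. Each of the 4 separated the groups, with a limma adjusted p of 0.106 for Tanc1 and 0.126 for the other 3. Their choice by small p-values favours such a separation.

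On the lower side Qdpr, Rpgrip1, Sp110 and Dctpp1 were among the 5 genes with the smallest p-values, and none passed (limma adjusted p of 0.126 to 0.141). Rpgrip1, a ciliary protein, was at 53.4, 62.4, 64.8 and 76.2 in the high group and at 148, 195, 139 and 150 in the low group, a difference of -1.28 ± 0.22 (SE, n = 4 and 4). Qdpr, which regenerates tetrahydrobiopterin, was at 469 ± 46 (SD, n = 4) and 789 ± 41 (SD, n = 4). Sp110, a nuclear body protein, was at 691 ± 116 (SD, n = 4) and 1190 ± 27 (SD, n = 4), and Dctpp1, a nucleotide pyrophosphatase, at 759 ± 136 (SD, n = 4) and 1282 ± 54 (SD, n = 4). In all 4, every high tumour was below every low tumour, as in 3.75% of all genes tested. The 4 were chosen by their small p-values, so this separation is not a further result.

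Of the other components of the pre-B cell receptor, none passed and all overlapped. Ighm, the mu heavy chain, was at 4729, 18683, 16676 and 25582 in the high group and at 26743, 19529, 24972 and 19172 in the low group. Cd79a was at 4089, 3958, 3591 and 8868 against 5283, 8241, 6669 and 4364, and Cd79b differed by -0.50 ± 0.20 (SE, n = 4 and 4; limma adjusted p = 0.29). Vpreb3, a related gene whose product stays inside the cell, ran from 2041 to 3129 against 560 to 4025. Ighm was lowest of the 8 tumours in WT_early_5, the tumour with the highest score.

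Downstream of the receptor, 9 of 19 signalling genes had a positive difference, with a median of -0.02 (0.05 after quantile normalisation) and none called. Fyn, a Src-family kinase, was at 776, 701, 804 and 406 in the high group and at 403, 225, 384 and 319 in the low group, which do not overlap, with an adjusted p of 0.185 in limma. Ptpn6 (SHP-1), an inhibitory phosphatase, was at 952, 1797, 1963 and 1449 against 3215, 2093, 1885 and 2033, which overlap. Of the 19 genes, 1 lay above and 2 below in every high tumour, where 5.34% and 3.75% of all genes tested did.

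Of 10 V(D)J recombination genes 5 had a positive difference, with a median of 0.03 (-0.17 after quantile normalisation), and none passed. Dntt was at 553, 244, 87.6 and 23.0 in the high group and at 7.35, 0.98, 1.74 and 1.71 in the low group, with 16.4 in WT_early_4. Every high tumour exceeded every low one, by 5.29 ± 0.90 (SE, n = 4 and 4) on the log2 scale, but the limma adjusted p was 0.126. Dntt was the 1 gene of the 10 that lay above in every high tumour, where 5.34% of all genes tested did. Among the late tumours Dntt was highest, at 61.5, in WT_late_3, the late tumour with the highest score, against a late median of 2.04.

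The recombinases, named after their values were seen, did not follow Dntt. Rag1 was at 3131, 3266, 4452 and 379 in the high group and at 2804, 404, 1001 and 4021 in the low group. Rag2 was at 387, 351, 626 and 48.7 against 402, 151, 217 and 103. WT_early_6 had the lowest value of both genes among the 8 tumours, while HET_early_3 and, for Rag1, WT_early_2 of the low group lay at levels of the high group.

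Markers of pro-B and pre-B cells mostly lay higher in the high group: 15 of 16 had a positive difference, with a median of 1.47 against 0.02 for all genes, of which 51.5% were positive. None of the 16 passed. Their summed level overlapped, at 20710 to 30694 in the high group and 20119 to 24087 in the low group. Kit, the receptor of stem cell factor, was at 226, 161, 81.7 and 141 in the high group and at 53.9, 21.6, 37.4 and 57.2 in the low group, a separation with a limma adjusted p of 0.177. Cd9 and Cplx2 also separated the groups, and Mme (CD10) did not: it was at 101, 240, 159 and 79.0 against 83.3, 8.84, 0 and 19.6. Of the 16 markers, 3 lay above in every high tumour, where 5.34% of all genes tested did. Naming members by small p-values favours those that separate. Il7r, the interleukin 7 receptor on which mouse pro-B cells depend, overlapped because it was at 2790 in HET_early_3, above every high tumour (1923, 981, 507 and 267), and at 6.96 to 317 in the other 3 low tumours. In bulk RNA, fewer cells of a type and less RNA per cell cannot be told apart. The non-tumour score described below also separated the groups, and the part of other cells in these markers was not tested.

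Of 23 B lineage transcription factors 15 had a positive difference (median 0.24) and none passed. Bcl6, a repressor induced downstream of the pre-B cell receptor, was at 190, 136, 75.8 and 69.8 in the high group and at 53.1, 35.4, 13.1 and 16.2 in the low group, without overlap and with a limma adjusted p of 0.185. Runx1 ran from 351 to 631 against 184 to 288, also without overlap. These were the 2 of 23 that lay above in every high tumour, where 5.34% of all genes tested did. Lef1, a factor of the pro-B stage, was at 1383, 1411, 1740 and 613 in the high group and at 959, 452, 0 and 1.71 in the low group, so that HET_early_3 exceeded WT_early_6. Of 14 genes of interleukin 7 signalling 10 were positive (median 0.26), none called.

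**Figure D3:**
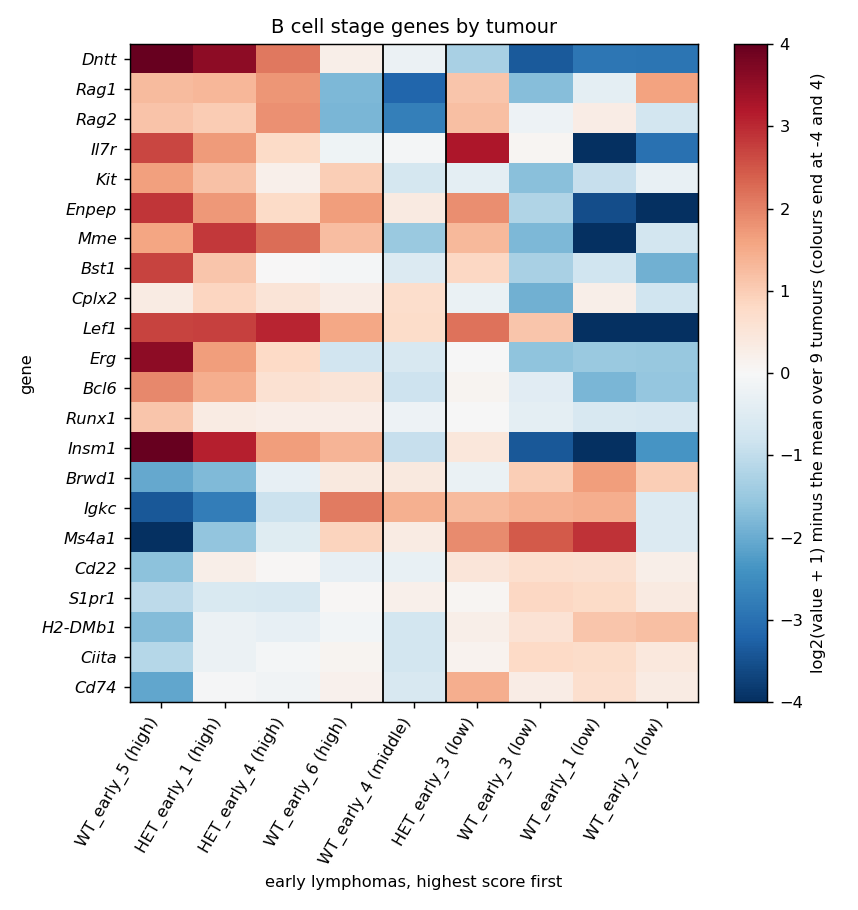
Heat map of 22 B cell stage genes (rows) in the 9 early tumours (columns, highest score first), coloured by log2(value + 1) minus the gene's mean over the 9 tumours; vertical lines bound the middle tumour. Dntt and Insm1 darken towards WT_early_5 and HET_early_1, the low-group tumour HET_early_3 shares high Il7r and Lef1, and Ms4a1 and Igkc are lowest in WT_early_5.

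Genes of later B cell stages mostly overlapped between the groups. Of the light chain constant genes, 1 of 4 tested had a positive difference (median -1.71, and 0.63 without the 2 tumours in which both rule genes exceeded 300), and none passed. Igkc, the kappa constant gene, was at 361, 564, 2095 and 16040 in the high group and at 9195, 10048, 10603 and 2604 in the low group. It was lowest in the 2 tumours with Igll1 and Vpreb1 above 300 and highest of all 8 in WT_early_6. That tumour also held Igha, the alpha heavy chain, at 8668 and the joining chain Jchain at 3362, against 446 and 289 or less in the other 7, and 6 of 7 heavy chain constant genes were positive with none called, with a median of 1.93 that was 0.92 without WT_early_6, 0.71 with the continuous score and -1.97 with the non-tumour score described below as a covariate, which itself separates the groups. Reads of the similar constant genes may be shared among them.

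Ms4a1 (CD20) was at 9.79, 199, 426 and 1121 in the high group and at 2224, 3327, 4432 and 410 in the low group, so that WT_early_2 fell within the high range. Over 19 markers of immature and mature B cells 9 were positive (median -0.12). Cd38 was at 303 ± 45 (SD, n = 4) in the high group and 684 ± 220 (SD, n = 4) in the low group, and S1pr1, the receptor for lymphocyte exit, at 440 ± 147 (SD, n = 4) and 906 ± 212 (SD, n = 4). Both separated the groups, without passing (limma adjusted p of 0.178 for Cd38 and 0.185 for S1pr1). They were the 2 of 19 that lay below in every high tumour, where 3.75% of all genes tested did. Naming members by small p-values favours such a separation. Of the markers of germinal centre B cells and plasma cells 7 of 10 were positive (median 0.41), and of the pan-B genes 4 of 14 (median -0.26), with none called.

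All 11 genes of MHC class II presentation had a negative difference, with a median of -0.87, and none passed. Of these, 4 separated the groups with every high tumour lower, as did 3.75% of all genes tested. H2-DMb1, a subunit of the peptide-loading factor H2-DM, was at 49.9, 144, 136 and 158 in the high group and at 198, 253, 364 and 394 in the low group (limma adjusted p = 0.192). Ciita, the class II transactivator, was at 162, 305, 343 and 388 against 402, 633, 595 and 482, a difference of -0.87 ± 0.28 (SE, n = 4 and 4; limma adjusted p = 0.231). WT_early_5 was the lowest tumour for both. The summed level of the list ran from 5087 to 16517 in the high group and from 16224 to 26968 in the low group, and macrophages also express these genes. Over the settings described below, the list median ran from -1.545 to 0.275.

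Of 30 MYC targets 28 had a negative difference (list median -0.33), and none passed. The list median ran from -0.497 to 0.137 over the settings described below. Ppan, a ribosome biogenesis factor, was at 1813 ± 165 (SD, n = 4) in the high group and 2658 ± 227 (SD, n = 4) in the low group, without overlap (limma adjusted p = 0.166). Rrp9, a nucleolar protein, ran from 573 to 851 against 942 to 1135. Of the 30 targets, 3 lay below in every high tumour, where 3.75% of all genes tested did. Myc itself was at 6099, 6488, 7147 and 8556 in the high group and at 9190, 16555, 6821 and 14417 in the low group, which overlap through WT_early_1. Myc RNA includes the transgene's transcript where its reads match the Myc gene. Of Myc and its partners 5 of 10 were positive, with a median of -0.01 (0.02 after quantile normalisation).

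Of 28 proliferation genes 16 were positive, with a median of 0.06, and none passed. Among 11 cyclin D and CDK inhibitor genes 8 were positive (median 0.40). Ccnd3, the cyclin that pre-B cells need to expand, was at 5275 in WT_early_5 and at 1035, 1358 and 1433 in the other high tumours, against 471 to 1042 in the low group. Ccnd1 was lowest, at 320, in the same tumour, and ran from 1048 to 1478 in the other 3 high tumours and from 1457 to 2496 in the low group.

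Of the BCL2 family 5 of 14 were positive (median -0.09). Bcl2l2 (BCL-W), which protects from apoptosis, was at 220, 128, 72.4 and 175 in the high group and at 53.9, 27.5, 25.2 and 31.6 in the low group, while Mcl1, another protector, was at 2765 ± 164 (SD, n = 4) and 3401 ± 197 (SD, n = 4). Neither passed (limma adjusted p of 0.159 for Bcl2l2 and 0.248 for Mcl1). Of 18 p53 pathway genes 13 were positive (median 0.37), and Perp, a p53 target that is also a desmosome protein of epithelia, was at 16.0, 38.2, 2.53 and 159 against 0.82, 0, 0 and 0. Of the interferon response genes 9 of 20 (median -0.02) and of the immediate early genes 13 of 17 (median 0.46) were positive, with none called.

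**Figure D4:**
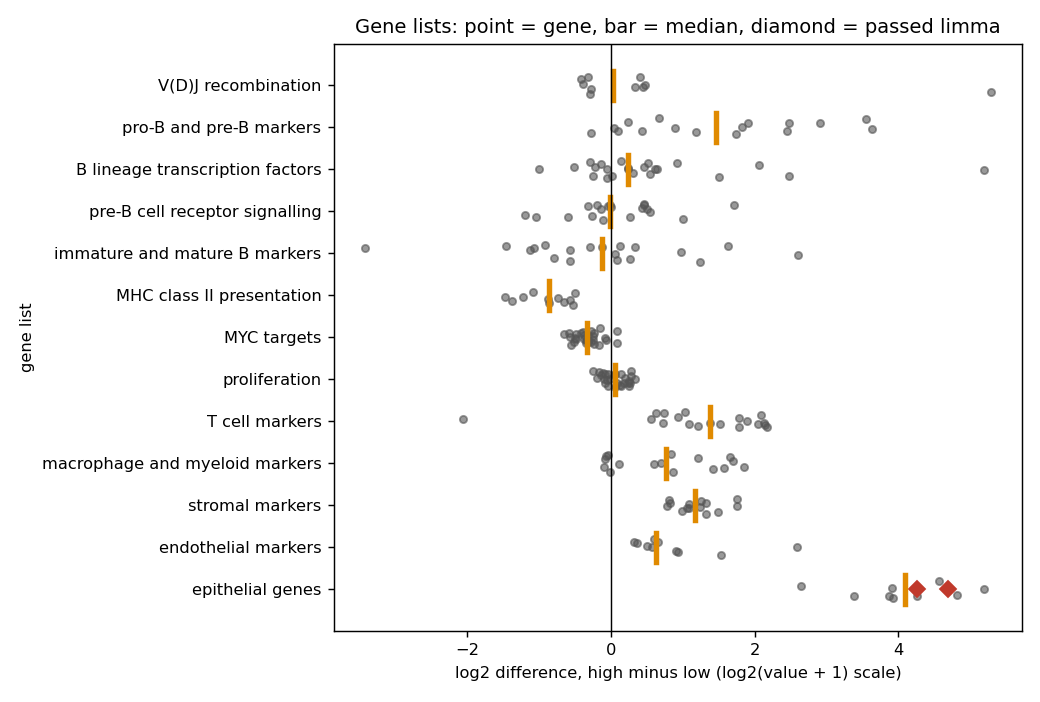
Log2 difference between high and low groups (log2(value + 1) scale) of each tested member of 13 gene lists; a point is a gene, an orange bar the list's median and a red diamond a gene that passed limma. Only Krt5 and Col17a1 of the epithelial list carry diamonds, and all MHC class II points lie below 0.

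Most markers of other cell types lay higher in the high group as well. All 14 stromal markers had a positive difference (median 1.16, and 0.81 with the continuous score described below), where 51.5% of all genes were positive, and 3 did not overlap, where 5.34% of all genes lay above in every high tumour. Their summed level ran from 18019 to 36240 in the high group and from 6907 to 18199 in the low group. Dcn, a fibroblast proteoglycan, was at 882, 713, 716 and 1075 in the high group and at 592, 422, 174 and 283 in the low group, with a limma adjusted p of 0.185. Sparc and Postn, matrix proteins, separated the groups as well. None of the 14 was at 0 in any of the 8 tumours.

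T cell markers were positive in 18 of 19 (median 1.38, but 0.03 with the continuous score), with summed levels of 754 to 3115 in the high group and 714 to 2790 in the low group. Next, 11 of 16 macrophage and myeloid markers were positive (median 0.77, continuous 0.33; sums of 6619 to 19394 and 8050 to 14508), as were all 10 endothelial markers (median 0.63, continuous 0.58; sums of 2584 to 5338 and 1869 to 4554). Erythroid markers were positive in 3 of 8 (median -0.49, continuous 0.01). No member of these 4 lists passed, and of these markers Icos, Vsig4, Klf1 and Gata1 were at 0 in at least 1 high tumour. Averaged as z scores, the stromal, endothelial, macrophage and T cell lists gave a non-tumour score that ran from 0.052 to 0.795 in the high group and from -0.846 to -0.009 in the low group, without overlap.

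Cartilage, muscle and gland markers were positive in 4 of 7 (median 1.85), and their sum of 734324 in WT_early_6 rested on salivary genes such as Bpifa2 and Amy1. In that tumour Amy1, an amylase, was at 141796, against 3.41 to 220 in the other 7. Of the Y-linked genes and Xist, 1 of 5 was positive (median -0.54), and Xist was at 8642 to 13582 in 5 of the 8 tumours and at 26.6 or less in WT_early_6, HET_early_3 and WT_early_2. The part of these cells in the differences above was not tested: the epithelial score, the mean z score of the 10 epithelial genes, also separated the groups (0.266 to 1.207 against -1.059 to -0.537), so a fit with either score as a covariate cannot tell it from the groups.

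Because the 4 against 4 split cut through a graded score, the score was also fitted as a continuous variable over the 9 ranked tumours, with differences scaled to the distance between the group mean scores (7.72 and 2.08). Limma then passed 191 genes, 1.12% of those tested, of which 141 rose with the score (0.828%) and 50 fell (0.294%). Krt5 and Col17a1 were not among them (limma adjusted p of 0.0698 and 0.0648). The fit rests on WT_early_5, the tumour with the highest score: without it 2 genes passed, 1 of them among the 191. Without WT_early_1 11 passed, without WT_early_4 56, without HET_early_4 69 and without WT_early_3 122, while leaving out any of the other 4 tumours gave 140 to 258.

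Dntt and Insm1 were among the genes with the largest rise in this fit. Dntt rose by 4.24 ± 0.57 (SE, n = 9) with a limma adjusted p of 0.0217. Insm1 (chromosome 2, 146221921 to 146225020), a zinc finger repressor known from neuroendocrine cells, was at 563, 267, 98.5 and 79.9 in the high group, 15.7 in WT_early_4 and 41.6, 1.97, 0.87 and 5.12 in the low group. It rose by 3.93 ± 0.67 (SE, n = 9; limma adjusted p = 0.0338). Among the late tumours Insm1 was at 952 in HET_late_3, which had 1 read each of Igll1 and Vpreb1, and 157 in WT_late_3.

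Of the 23 transcription factors 4 rose and none fell, where 0.828% of all genes tested rose and 0.294% fell, in a fit with 191 calls that had 2 without WT_early_5. Erg, an ETS factor of early progenitors, was at 846, 229, 123 and 41.3 in the high group, 44.9 in WT_early_4 and 69.4, 22.6, 24.4 and 23.9 in the low group, and rose by 2.51 ± 0.33 (SE, n = 9; limma adjusted p = 0.0208). Bcl6 rose by 1.87 ± 0.27 (SE, n = 9; limma adjusted p = 0.0252). Runx1 rose by 0.81 and Myb, named after its values were seen, by 0.67, with limma adjusted p-values of 0.0305 and 0.0462. Of 16 pro-B and pre-B markers 3 rose and none fell, against the same 0.828% and 0.294%, and these, also named after the fact, were Bst1 (by 1.94), Enpep (by 3.32) and Gfra2 (by 2.76). Enpep, the BP-1 antigen of pre-B cells, was at 897, 411, 207 and 393 in the high group and at 441, 52.1, 9.57 and 4.27 in the low group.

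In the other lists few members passed. Of 19 receptor signalling genes 2 rose and 1 fell, where 0.828% of all genes tested rose and 0.294% fell. Inpp5d (SHIP-1), a lipid phosphatase that restrains signalling, rose by 0.65 (limma adjusted p = 0.0462). Pik3ap1 (BCAP), an adaptor for PI3 kinase, rose by 0.77 (limma adjusted p = 0.0477). Between the groups, Pik3ap1 differed by -0.13 without both tumours above 300. H2-DMb1 fell by 1.25, S1pr1 by 0.85 and Rrp9 by 0.48, and Acta2, the smooth muscle actin among the stromal markers, rose by 1.20. No member of the T cell, macrophage, endothelial, erythroid or epithelial lists passed.

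The largest rises in the continuous fit were mostly outside B cell lists. Drc7, a protein of motile cilia, was at 1078, 904, 260 and 5.51 in the high group and at 59.6, 0, 0 and 0 in the low group, and rose by 5.73 ± 1.01 (SE, n = 9; limma adjusted p = 0.036). Gfra1, a co-receptor for the growth factor GDNF, Scn4b, a sodium channel subunit, Adgrg3, an adhesion receptor, and Fgf13 rose by 4.92, 4.22, 4.06 and 3.55. Scn4b and Adgrg3, like Drc7, were high in WT_early_5, HET_early_1 and HET_early_4 and low in WT_early_6, at 6.43 and 22.04.

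The other 3 are genes of matrix or muscle. Col11a1, a cartilage collagen, was at 1161 in WT_early_5 and at 39.1 or less in the other 7, and C1qtnf3 and Tnnt2, the cardiac troponin T, were likewise highest in WT_early_5, at 344 and 128. They rose by 3.98, 3.77 and 3.55.

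Brwd1 (chromosome 16, 95992092 to 96082526), which opens the kappa locus and closes early genes in small pre-B cells, had the smallest p of the genes that fell. It was at 103, 125, 338 and 558 in the high group, 566 in WT_early_4 and 356, 856, 1372 and 858 in the low group, and fell by 1.82 ± 0.22 (SE, n = 9; limma adjusted p = 0.0137). Among late tumours it was lowest, at 75.9, in WT_late_3, against a late median of 651. Rasgrp1, a Ras activator below antigen receptors, was at 21.4, 52.2, 348 and 1071 in the high group and at 405 to 1535 in the low group, and fell by 2.87. Itgb7, the integrin chain for homing to the gut, fell by 2.54; it was at 19.6 and 50.3 in WT_early_5 and HET_early_1 and between 343 and 925 in the other 7 tumours.

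Further falls were of Lingo3 (-3.81), Hepacam2 (-3.22), Syndig1l (-3.20), Actr3b (-2.87), Apobec2 (-2.61), Unc5cl (-2.33) and Zfp105 (-1.87), on the same log2 scale, with limma adjusted p-values of 0.0156 to 0.0477. Actr3b, an actin-related protein, was at 1.78, 14.0, 35.4 and 20.2 in the high group and at 48.2, 119, 144 and 254 in the low group. Hepacam2 was at 8.01, 53.1, 216 and 56.0 against 187, 728, 1147 and 810, with an overlap between HET_early_4 and HET_early_3.

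**Figure D5:**
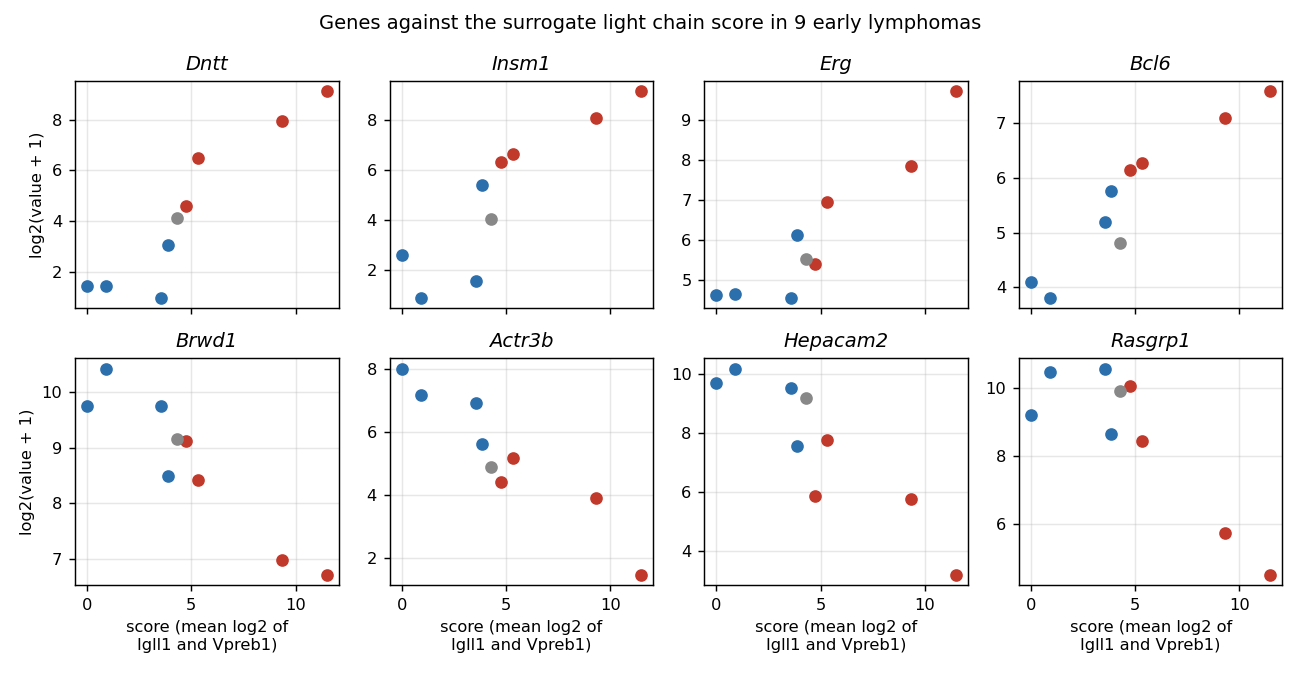
Log2(value + 1) of 4 genes that rose and 4 that fell with the score (vertical axes) against the surrogate light chain score (horizontal axes, mean log2 of Igll1 and Vpreb1), 1 point per tumour; red is high, blue low and grey the middle tumour. The points of Dntt range from 0.98 normalised reads in WT_early_3, which is not the tumour with the lowest score, to 553 in WT_early_5. The 2 tumours with scores above 9 lie far from the other 7.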

How the data were processed

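Polyadenylated RNA of 19 lymphomas was sequenced with a TruSeq kit on a Genome Analyzer IIx, per the labels' protocols. Per the same protocols library amplification took 10 cycles, or 8 with a second version; which library had which version is not given in the sources used here, and values within such batches were not computed. TopHat2 2.1.1, Cuffdiff, Cuffnorm, Cufflinks 2.2.1 and FastQC 0.11.5 are named in the submitters' processing notes, with builds GRCm38 and mm10. The annotation, the strand setting and the tool behind the table are not given there, so antisense and overlapping genes cannot be told apart.

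The table deposited by the authors held a normalised signal for 21086 genes, which were gene counts divided by 1 factor per library: 100% of values were whole multiples of 1 read within 0.01 reads. The depth recovered was 8297856 to 12497732 reads per library, and intervals of counting error are only a lower limit because amplified reads are not independent molecules. The log2 fold changes and adjusted p-values that the authors deposited for 5 comparisons concern other groups and were not used.

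Groups followed the score of Igll1 and Vpreb1. In R 4.3.3, limma 3.58.1 (two-sided, with trend and empirical Bayes) was run on log2(value + 1) of genes that reached 1 in 4 or more of the 8 libraries, and called at a Benjamini-Hochberg adjusted p under 0.05. Fold changes on this scale understate those of weakly expressed genes. EdgeR 4.0.16 and DESeq2 1.42.0 on the recovered reads served as alternatives. The script was tested on simulated data. Genes were named by a rule: all receptor components, the 10 largest called differences in each direction or, with fewer than 5 calls, the 5 smallest p-values, passing over predicted genes, receptor segments and means under 20 in the higher group, and up to 4 members of each list with the smallest p. Members, lists and the rule were chosen with earlier results of these data known. The epithelial list, its covariate, the fit without both tumours above 300 and the leave-one-out fits of the continuous score were added after seeing the data. Each tumour counted as 1 replicate. Tables were handled with pandas 2.3.3 and NumPy 2.4.6. A gene chosen by this rule is not reported here.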

Additional observations from a re-analysis of the deposited data

Results flagged for a closer look

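Within groups of 4 tumours, 7 values of 70 groups of values tested stood apart by Dixon's criterion at the 95% level. Chance alone gives about 1 in 20 groups if values are normally distributed and groups independent. Apart from the receptor components, these genes were chosen by their relation to the groups or the score. They also share the same libraries, so that rate is only a rough guide. In the high group Cd79a was at 8867.96 in WT_early_6, above the other 3 tumours. In the low group WT_early_3 was the highest for Krt5 (0.98), Sox9 (1.97) and Col11a1 (27.52). HET_early_3 was the highest of the low group for Drc7 (59.59) and the lowest for Dctpp1 (1200.87) and Unc5cl (28.57). For Krt5, Sox9 and Drc7 the other low tumours had no read, so any read would stand apart. The value of Krt5 was 1 read.

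Surrogate light chain reads also occurred in tumours outside the comparison, above the 3 reads that a count of 0 allows. WT_late_3 held Igll1 at 34.94 (29 reads) and Vpreb1 at 46.99 (39 reads). WT_late_4 held Igll1 at 7.25 (6 reads), and WT_late_5 held it at 4.71 (4 reads). WT_early_4, between the groups, held Igll1 at 26.91 (36 reads) and Vpreb1 at 12.71 (17 reads).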

How the results depend on the processing

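The count of 2 genes called between the groups was 1 with a pseudocount of 0.1 or with genotype as a covariate, and 2 without the filter or with groups by Igll1 alone, which are the same groups. It was 0 after quantile normalisation, with edgeR on recovered reads, with all 19 libraries in the fit, with onset in weeks, the non-tumour cell score or the epithelial score as a covariate, with the 4 highest against the 4 lowest of all 10 early tumours, and without both tumours above 300. At an unadjusted p under 0.05 these fits, in that order, gave 2258, 2648, 1503, 2231, 1264, 777, 741 and 1228 genes, against 2612 in limma as reported. DESeq2 on recovered reads called 593 (478 higher and 115 lower), the continuous score 191, the 3 highest against the 3 lowest 42 (36 and 6), and groups by Vpreb1 alone, where HET_early_3 takes the place of WT_early_6 in the high group and WT_early_4 joins the low group, 103 (83 and 20). Leaving out 1 tumour at a time gave 0 to 60. With the 3 highest against the 3 lowest, or without any 1 high tumour, Krt5 and Col17a1 missed the filter and were not tested. For the continuous score leaving out 1 tumour gave 2 to 258 genes. Which cause moved these counts was not tested.

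Of the log2 differences of named genes, 1726 values kept direction and side of the threshold, 89 came to pass it, 27 no longer passed and 34 changed sign. Only Krt5 and Col17a1 passed as reported, so all 27 losses were theirs. Fits in which the filter left a gene out are not in these counts. Most of the 1726 values belong to genes that did not pass as reported, so that count says little about the calls. With the 10 early tumours, where HET_early_2 joins the low group and HET_early_3 leaves it, the sign changed for C1qtnf3 (-0.0007), Col11a1 (-0.28), Sparc (-0.80), Cd79a (1.44), Cd79b (1.22), Ighm (0.70), Dctpp1 (0.043), Sp110 (0.061), Myc (0.067) and Ppan (0.020). The epithelial and non-tumour scores each separate the groups without overlap, and the epithelial score holds both called genes, so fits with them say nothing about stability. With the epithelial score it changed for Amy1 (-6.80), Igha (-3.86), Krt8 (-3.01), Jchain (-1.23), Cdh1 (-0.71), Ccnd3 (-0.47), Cd9 (-0.37), Col11a1 (-0.15), Dcn (-0.023), Ccnd1 (0.61), Ighm (0.47) and Ptpn6 (0.34). Without both tumours above 300 it changed for Pik3ap1 (-0.13), Rag1 (-0.17), Rag2 (-0.13), Myb (-0.028) and Itgb7 (0.0074), and with the non-tumour score for Igha (-1.60), Jchain (-2.26) and Mme (-0.012). It also changed for Ptpn6 with groups by Vpreb1 alone (0.0019). Leaving out 1 tumour at a time, Rag2 ran from -0.029 (without HET_early_4) to 1.19, Vpreb3 from -0.12 (without WT_early_2) to 0.83 and Rag1 from -0.14 (without WT_early_3) to 1.29. Of the list medians 607 stayed within the replicate spread and 65 moved. No paired analysis was possible because each tumour came from its own mouse and the labels hold no replicate number shared between the groups. With 4 tumours a group and a score set mainly by 2 tumours, genes at a few reads, such as Col17a1 in the low group, are limited by depth.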

Other observations

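WT_late_3 was the late tumour with the highest score (5.38), and genes of the early comparison were read in it as values only, some of them chosen after their values were seen. Among the 9 late tumours it held the highest Dntt (61.5, against a late median of 2.04), the highest Erg (98.8, median 29.9), the highest Lef1 (1539, median 43.7) and the highest Tanc1 (223, median 64.5). It held the lowest Brwd1 (75.9, median 651). For these 5 genes its values lay on the side of the high early group. Others did not: Bcl6 was at 30.1 in WT_late_3 against a late median of 133, and Krt5 was at 0. One tumour gives no replicate, and no test was made.

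Krt5 and Col17a1 were also seen outside the comparison. Col17a1 was at 184 and Krt5 at 76.5 in WT_late_1, a tumour with no read of Igll1 or Vpreb1, and Col17a1 at 52.3 in HET_late_1 and 47.5 in HET_late_2.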
